A study of Homo sapiens with 4 samples.

Results

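C4-2B ENZR, a prostate carcinoma line kept in the antiandrogen drug enzalutamide, was compared with LNCaP, an androgen-responsive line grown without the drug. The comparison used 2 of the 4 RNA sequencing libraries of the study, those with a non-targeting control hairpin, 1 per line, and the 2 libraries with a hairpin against MAOA were set beside them. Both lines were cultured with 10% fetal bovine serum, and C4-2B ENZR also with 20 µM enzalutamide. In both lines the hairpins were delivered by lentivirus and carrying cells were kept by antibiotic selection, so the controls are infected, selected cultures too. The authors gave each line its own table and normalized the tables separately, so each library was rescaled to reads per 1000000 (RPM) and levels across the lines are described without a test. With 1 library per group, line, drug and sequencing batch cannot be told apart, and only large differences are described. A gene was measured where it reached 1 RPM in either control library, which 14569 of 25343 genes did. Ratios are the log2 of (C4-2B ENZR RPM + 1)/(LNCaP RPM + 1), which understates the difference of low genes.

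LNCaP was grown from a lymph node metastasis, and C4-2B is a descendant of it that was selected in castrated mice. Androgens act on prostate cells by inducing some genes, such as KLK3, the gene of prostate-specific antigen, through response elements near them and by repressing others. Enzalutamide is an antiandrogen that blocks this response, and LNCaP depends on androgen signalling for growth.

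KLK3, the gene with the lowest ratio, and its neighbour KLK2 encode secreted serine proteases of the prostate gland. Their upstream sequences are shown because both genes belong to the androgen-induced set described next and lie side by side. They are the 250 bases before each start, from RefSeq on GRCh38.p14, at chr19:50854665-50854914 for KLK3 and chr19:50873189-50873438 for KLK2, both on the + strand. Capitals mark the 15 bases at -170 of KLK3 and their best match in KLK2 at -176, a place known in KLK3 as the proximal androgen response element.
KLK3: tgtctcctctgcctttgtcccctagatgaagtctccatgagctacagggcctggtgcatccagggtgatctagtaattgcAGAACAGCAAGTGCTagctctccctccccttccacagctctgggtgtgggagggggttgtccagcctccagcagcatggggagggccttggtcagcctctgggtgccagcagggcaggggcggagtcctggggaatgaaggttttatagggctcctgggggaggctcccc
KLK2: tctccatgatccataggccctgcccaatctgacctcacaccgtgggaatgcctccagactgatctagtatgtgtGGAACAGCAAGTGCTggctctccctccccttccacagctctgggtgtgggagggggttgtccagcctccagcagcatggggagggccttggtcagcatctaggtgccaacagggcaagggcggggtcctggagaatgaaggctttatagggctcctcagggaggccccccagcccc
The marked bases were the same at 14 of 15 positions and differed by A1G, counted from 1 at the 5′ end with the KLK3 base first. The longest run shared by the 2 windows was 80 bases. The hexamer AGAACA, which is one arm of the response element, was searched on both strands and was present in 5 of 25 windows (20%) of the 14 androgen-induced, 4-fold lower genes with an entry. It was present in 14.8% of all 35116 windows of the same length and in 10.0% of those of measured genes. The full element, AGAACA followed by 3 bases of any kind and TGTTCT, was found in none of the 25 windows and in 1 window of all.

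Most genes had similar levels in both control libraries. Of the measured genes, 11689 (80.2%) lay within 2-fold, and the median log2 ratio was 0.13. At 4-fold, 232 genes (1.59%) were higher in C4-2B ENZR and 324 (2.22%) were lower. At 2-fold, these were 1449 (9.95%) and 1431 (9.82%). The 4-fold higher genes took 1.14% of the reads in C4-2B ENZR and 0.138% in LNCaP, and the lower genes 0.398% and 3.47%. Of the higher genes, 104 were under 1 RPM in LNCaP, and of the lower genes 133 were under 1 RPM in C4-2B ENZR. At 0 reads were 13 of the higher genes in LNCaP and 23 of the lower genes in C4-2B ENZR. The MAOA hairpin libraries, made from the same lines, were also past 4-fold in the same direction for 212 of the 232 higher and 271 of the 324 lower genes. They share the line but carry another hairpin, so within a line an effect of the hairpin and variation between libraries cannot be told apart. They are no replicate of the drug.

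**Figure D1:**
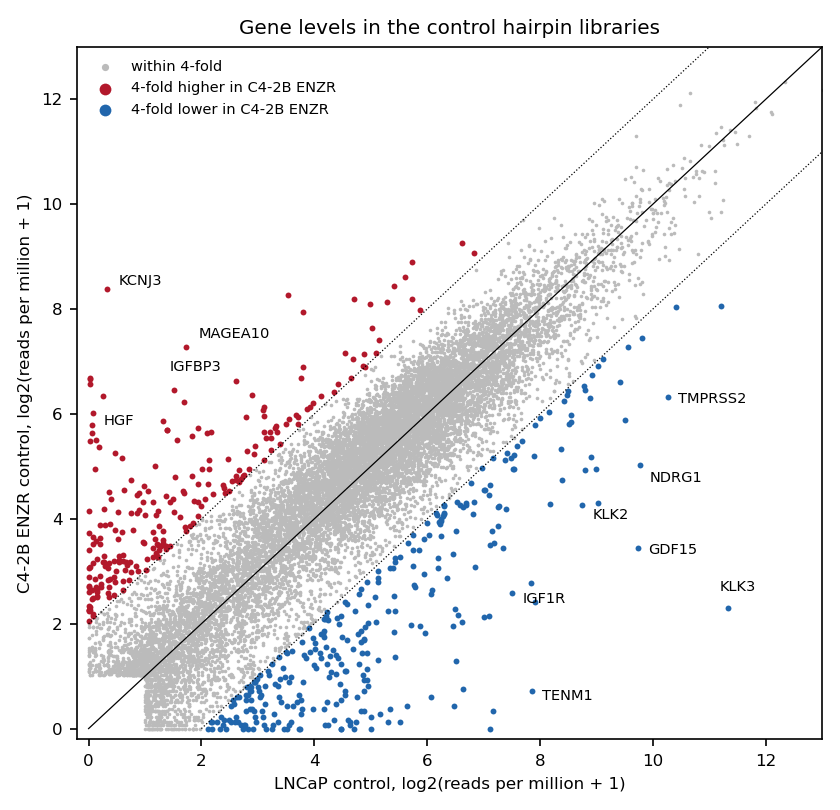
Level of each measured gene in the LNCaP control library (x axis) and the C4-2B ENZR control library (y axis), as log2 of RPM + 1, with Y-linked genes left out. Red and blue points are 4-fold higher and lower in C4-2B ENZR, dotted lines mark that limit, and KLK3 lies farthest below them.

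The control libraries held 23479051 reads (C4-2B ENZR) and 52550452 reads (LNCaP), and the MAOA hairpin libraries 23679869 and 52012696. A count of 0 allows up to 3 reads, which is 0.128 RPM in the C4-2B ENZR and 0.0571 RPM in the LNCaP control. Intervals given with single folds are exact 95% intervals (Clopper-Pearson, conditional on the reads of both libraries) and cover counting error only. MAOA was read at 345 and 227 RPM in the control and MAOA hairpin libraries of C4-2B ENZR and at 481 and 131 RPM in those of LNCaP. The ratio also moved with base composition across the whole table. Over 5 bins of 2801 genes by transcript GC content its median went from 0.55 in the lowest bin to -0.42 in the highest, and 43 genes were 4-fold lower in the lowest bin against 124 in the highest. Over 9335 genes at 10 RPM or more in both libraries, which share the same 2 libraries, Spearman's rho between ratio and GC content was -0.52. The part of GC content in single gene differences was not tested. When ratios were centred within GC bins, 242 of the 324 lower and 184 of the 232 higher genes were still past 4-fold.

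**Figure D2:**
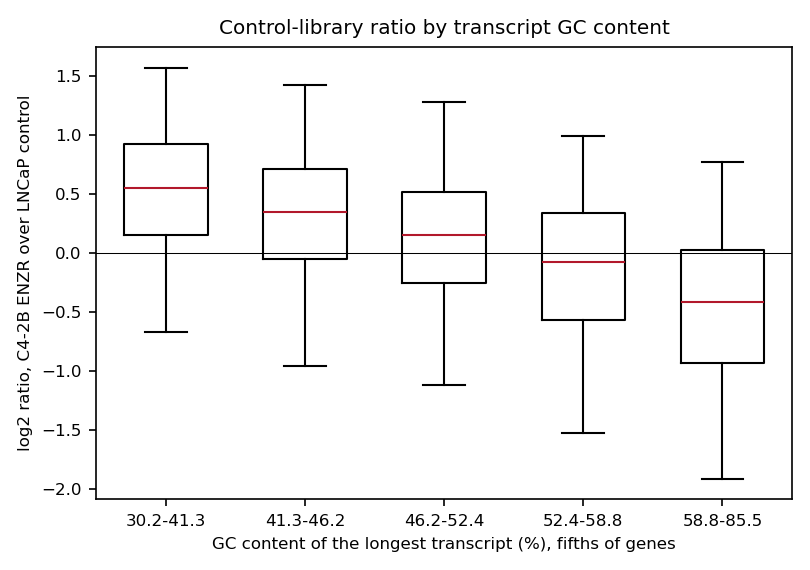
Log2 ratio of C4-2B ENZR over LNCaP control libraries (y axis) in 5 bins of genes ordered by GC content of the longest transcript in percent (x axis). Boxes show the quartiles with the median in red, whiskers the 5th and 95th percentiles, and medians go from 0.55 to -0.42.

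Genes that androgen induces in prostate cells were mostly lower in C4-2B ENZR. Their list, like every list here, was chosen with earlier results of these data known, so its counts describe the members and are no test. All 30 genes of the list were measured, 16 were 4-fold lower, where 2.22% of all genes were, 1 was 4-fold higher (1.59% of all genes), and their median log2 ratio was -2.09 against 0.13 over all genes. KLK3 was at 3.92 and 6.59 RPM in the control and MAOA hairpin libraries of C4-2B ENZR and at 2583 and 2552 RPM in those of LNCaP. Both libraries of each line lay together and far from the other line. The control levels differed 659-fold (counting interval 537 to 818). KLK2 was at 18.3 and 25.3 RPM in C4-2B ENZR and at 428 and 353 RPM in LNCaP, 23.4-fold lower in the control (interval 21.3 to 25.8). KLK15, a further neighbour, was at 0.554 and 0.633 against 5.94 and 4.83 RPM, a log2 ratio of -2.16. With KLK3 and KLK2 it formed a run of 3 measured genes in a row that were 4-fold lower in the RefSeq gene order. In the MAOA hairpin libraries and after GC centring KLK15 was inside 4-fold (-1.83 and -1.89), so the run did not hold there. KLK4, a protease of the same family, did not reach the limit, with 86.2 and 102 RPM against 303 and 460 (log2 ratio -1.80).

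The other androgen-induced genes covered several functions. TMPRSS2, a membrane serine protease whose promoter drives fusion genes in prostate cancer, was at 79.6 and 104 RPM in C4-2B ENZR and at 1228 and 1254 RPM in LNCaP. This was 15.4-fold lower in the control library (interval 14.7 to 16.2). NDRG1, a growth-linked cytosolic protein that hypoxia also induces, was at 31.5 and 32.0 RPM against 870 and 955, 27.6-fold lower (interval 25.7 to 29.7). MAF, a transcription factor, was read 6 and 2 times in the C4-2B ENZR libraries and 7501 and 3163 times in LNCaP, a log2 ratio of -6.84. The calcium channel gene TRPM8 was at 3.41 and 4.39 RPM against 136 and 103. SLC45A3, a transporter also known as prostein, was at 30.1 and 29 RPM against 506 and 392. In each of these genes every C4-2B ENZR library was below every LNCaP library.

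Differences were smaller for other members. FKBP5, a co-chaperone of steroid receptors, was at 87.1 and 75.8 RPM in C4-2B ENZR and at 446 and 374 RPM in LNCaP, 5.12-fold lower (interval 4.90 to 5.36). ABCC4 (log2 ratio -3.87), an efflux pump, PMEPA1 (-3.72), an inhibitor of TGF-beta signalling, and ALDH1A3 (-3.03), an enzyme of retinoic acid synthesis, were also 4-fold lower, as were HERC3 (-2.42), CENPN (-2.18), SPDEF (-2.12) and CAMKK2 (-2.06). Levels of C1orf116 (-0.39) and STEAP4 (-0.42) were closer. ACPP, the gene of prostatic acid phosphatase, went the other way, with 45.8 and 38.0 RPM in C4-2B ENZR and 7.80 and 8.73 RPM in LNCaP (log2 ratio 2.41). CAMKK2 was inside 4-fold in the MAOA hairpin libraries (-1.67) and after GC centring (-1.94). SPDEF has a GC-rich transcript, and its ratio was -1.31 after centring within GC bins, while that of KLK3 was -8.77. After that centring 14 of the 30 genes were 4-fold lower.

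**Figure D3:**
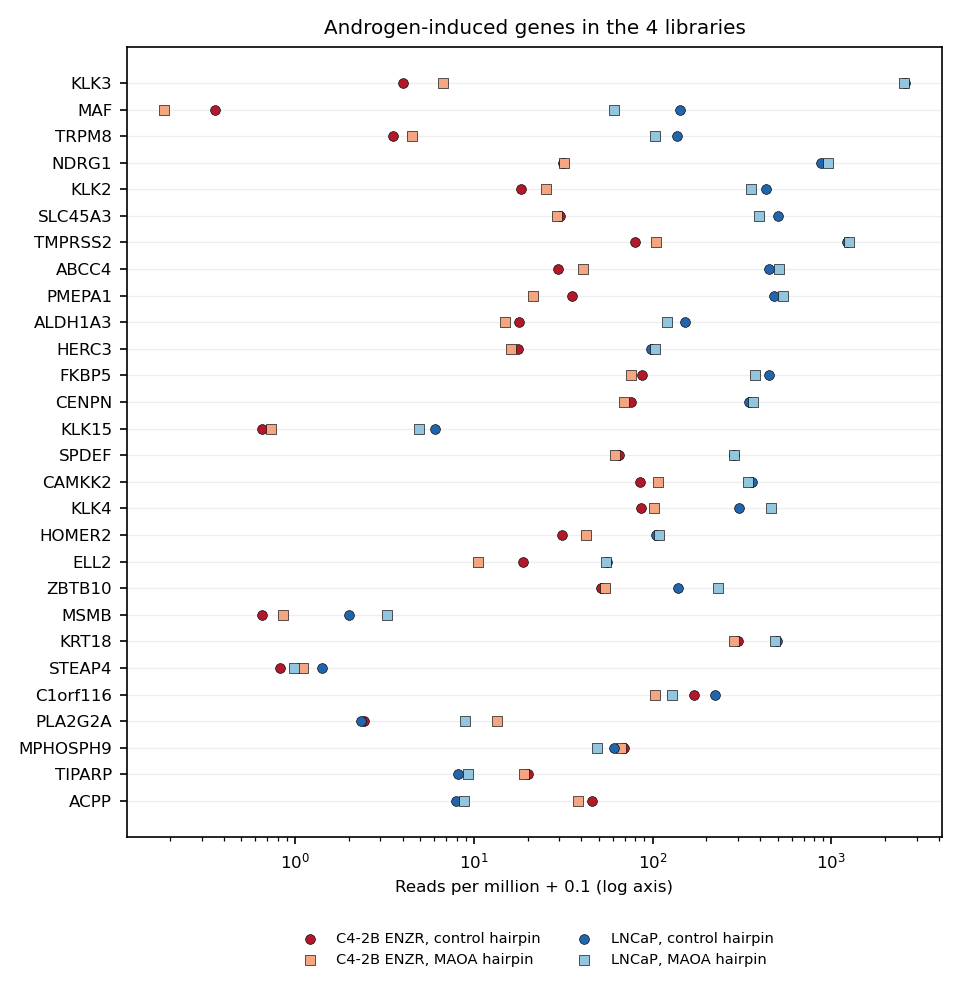
Level of 28 androgen-induced genes in the 4 libraries, in RPM + 0.1 on a log x axis, with genes ordered by control ratio. Each point is 1 library, and the red points of C4-2B ENZR lie left of the blue points of LNCaP for KLK3 down to ZBTB10.

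Transcription factors and coregulators that take part in androgen-induced transcription lay within 4-fold between the lines. FOXA1, a pioneer factor that opens chromatin, was at 450 RPM in C4-2B ENZR and 449 RPM in LNCaP. HOXB13 had 355 against 524 RPM and GATA2 329.7 against 351 RPM, both of them transcription factors of prostate cells. The coactivators NCOA2 (log2 ratio 1.17) and NCOA3 (0.89) were higher and the corepressor NCOR1 (-0.86) was lower, all within 4-fold. Of the 13 measured genes of this list, none was 4-fold higher (1.59% of all genes) or lower (2.22%). That count alone does not set the list apart from all genes.

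Genes that androgen represses were mostly higher. Of 12 measured genes 6 were 4-fold higher (1.59% of all genes) and 1 lower (2.22% of all genes). Their median log2 ratio was 1.99 in the control libraries and 0.95 in the MAOA hairpin libraries. With a pseudocount of 5 RPM 3 were 4-fold higher, and in the MAOA hairpin libraries 4. Of the 13 listed genes 7 were under 1 RPM in the LNCaP control. The measured members summed to 1334 RPM in the C4-2B ENZR control and 1378 RPM in the LNCaP control, so their summed level was not higher. OPRK1, the kappa opioid receptor, was at 25.7 and 10.3 RPM in C4-2B ENZR and at 0.685 and 0.884 RPM in LNCaP, 37.6-fold higher in the control (interval 26.8 to 54.1). UGT2B15, an enzyme that inactivates androgens by adding glucuronic acid, was at 22.3 and 12.3 RPM against 1.08 and 2.00. Its close relative UGT2B17 was at 3.32 and 1.86 RPM against 0.323 and 1.38, so the MAOA hairpin libraries were nearer to each other (log2 ratios 1.71 and 0.26). Reads can be split between UGT2B genes, and the sum over 7 of them was 32.7 and 17.9 RPM against 1.75 and 3.85. SLC1A3, a glutamate transporter, had a log2 ratio of 3.61, and DDC, an enzyme of dopamine and serotonin synthesis, 2.27. For DDC the MAOA hairpin ratio was 1.09, with 40.4 RPM in C4-2B ENZR and 18.5 in LNCaP. FOLH1, the gene of a prostate membrane antigen, had 1047 against 791 RPM (log2 ratio 0.40), and PRUNE2 was lower (-2.10), but inside 4-fold in the MAOA hairpin libraries (-1.58).

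Steroid enzymes mostly lay within 4-fold. Of 25 listed genes 15 were measured, of which 3 were 2-fold higher (9.95% of all genes) and 1 was 2-fold lower (9.82%). At 4-fold 1 was lower (2.22% of all genes) and none higher (1.59%), and the median log2 ratio was 0.02. The 4-fold count alone does not set the list apart from all genes. With a pseudocount of 0.1 RPM 3 were 4-fold higher, and with one of 5 RPM none was 4-fold lower. The 4-fold lower gene was CYP11A1, which cleaves the side chain of cholesterol in the first step of steroid synthesis. It had 1 read in each C4-2B ENZR library against 564 and 627 in LNCaP. AKR1C3, which makes testosterone from androstenedione, was at 3.45 and 3.63 RPM in C4-2B ENZR and at 0.400 and 0.596 RPM in LNCaP. Its plain fold was 8.63 (interval 5.29 to 14.7), and with 1 RPM added the log2 ratio was 1.67. AKR1C genes resemble each other, and AKR1C1, AKR1C2 and AKR1C3 summed to 8.39 and 8.19 RPM against 1.12 and 1.38. SRD5A1, a 5-alpha reductase, was at 14.1 against 27.9 RPM and HSD17B4 at 154 against 198 RPM.

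The glucocorticoid receptor can drive part of the androgen-induced genes in cells under antiandrogens. Its gene NR3C1 was hardly read in either line, with counts of 7 and 13 in the C4-2B ENZR libraries and of 8 and 5 in those of LNCaP. Of the 12 measured genes of its list, 3 were 4-fold lower in C4-2B ENZR (2.22% of all genes) and none was higher (1.59% of all genes), with a median of -1.05. ZBTB16, a transcription factor also induced by androgen, was at 3.07 and 2.79 RPM against 97 and 133 (log2 ratio -4.59). TSC22D3, known as GILZ, was at 37.1 and 101 RPM against 170 and 340, and SGK1, a kinase, at 3.28 and 2.11 against 17.3 and 5.94. For these 2 genes the MAOA hairpin ratios of -1.74 and -1.16 were inside 4-fold. ABCB1, a drug efflux pump, was read 0 and 1 times in C4-2B ENZR and 4 and 5 times in LNCaP. GSTM2, a glutathione transferase, was the 1 gene of 10 measured in the drug metabolism list past 4-fold (3.82% of all genes either way). It was at 16.4 against 0.818 RPM. Of the 10 genes 5 were 2-fold higher (9.95% of all genes) and 2 were 2-fold lower (9.82%). The median log2 ratio of the drug metabolism list was 1.07 in the control libraries but 0.28 in the MAOA hairpin libraries.

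Several ligands and receptors of growth factor pathways stood far apart. HGF, a ligand normally made by stromal cells that binds the receptor MET, was read 1268 and 2101 times in C4-2B ENZR and 2 and 1 times in LNCaP. The control fold was 1419 (interval 392 to 11730). MET was at 27 and 20.2 RPM against 1.88 and 1.77 (14.3-fold, interval 11.6 to 17.9), so both ligand and receptor were higher. The fibroblast marker list held 3 measured genes of 10, none 4-fold apart in the control libraries (3.82% of all genes). Its summed level was 50.1 and 60.5 RPM in C4-2B ENZR and 61.9 and 60.3 RPM in LNCaP, mostly COL1A1 (46.8 and 58.5 RPM in the controls). The endothelial list summed to 6.81 and 4.73 against 18.3 and 17.5 RPM, and the leukocyte list to 11.1 and 12.0 against 18.7 and 23.6 RPM. In each control library 4 of 10 fibroblast genes were at 0 reads, and of the 10 leukocyte genes 7 in C4-2B ENZR and 6 in LNCaP. In bulk RNA, fewer cells of a type and less RNA per cell cannot be told apart, and the part of other cell types in these ligand levels was not tested. Of the 3 measured fibroblast markers 1 had a control ratio above 0 and 2 below. The 1 above was LUM, a proteoglycan of connective tissue, which like HGF was higher in C4-2B ENZR. LUM was at 1.36 and 3.04 RPM in C4-2B ENZR and at 0 reads in both LNCaP libraries. Its log2 ratio was 1.24 in the control and 2.01 in the MAOA hairpin libraries, where it was past 4-fold.

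IGF1R, the receptor of insulin-like growth factors, was at 5.03 and 5.36 RPM in C4-2B ENZR and at 180 and 145 RPM in LNCaP, 35.9-fold lower in the control (interval 29.9 to 43.4). The list of IGF ligands, their binding proteins and IGF2 mRNA binding proteins held 9 measured genes. Among them 2 were 4-fold higher (1.59% of all genes) and none lower (2.22%), and 4 had a ratio below 0, with a median of 0.62. The 2 higher ones encode secreted binding proteins. IGFBP3 was at 97.9 and 93.7 RPM against 5.12 and 2.50, and IGFBP5 at 20.8 and 13 RPM against 0.818 and 0.538. The insulin receptor INSR was closer, with 25.3 against 55.5 RPM. FGFR3 was at 1.02 and 0.845 RPM against 28.1 and 31.3. Over 16 measured growth factor receptors 2 were 4-fold lower (2.22% of all genes) and 1 higher (1.59%), and the median was -0.33. IGF1R, FGFR3 and MET thus stood apart from the rest of the list. ERBB2 (log2 ratio -0.21) and ERBB3 (-1.08) lay within 4-fold.

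BMP and WNT genes differed in single members. ID1 and ID2, helix-loop-helix inhibitors that BMP signals induce, were at 119 and 29.9 RPM in the C4-2B ENZR control and at 13 and 3.41 RPM in LNCaP. In the MAOA hairpin libraries ID1 was at 66.6 against 12.5 RPM and ID2 at 15.5 against 2.81. BAMBI, a pseudoreceptor that dampens BMP and TGF-beta signals, was at 274 and 309 RPM against 30.6 and 19. The receptor BMPR1B was nearly unread in C4-2B ENZR, with 2 reads in each library against 2017 and 1882 in LNCaP. The WNT ligand WNT5A was at 49.4 and 48.7 RPM against 8.30 and 5.56, and LEF1, a transcription factor of the WNT pathway, at 34.2 and 35.3 against 4.53 and 2.73. They were the 2 of 17 measured WNT genes 4-fold higher (1.59% of all genes), and none was lower (2.22%). The median of that list was -0.10.

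**Figure D4:**
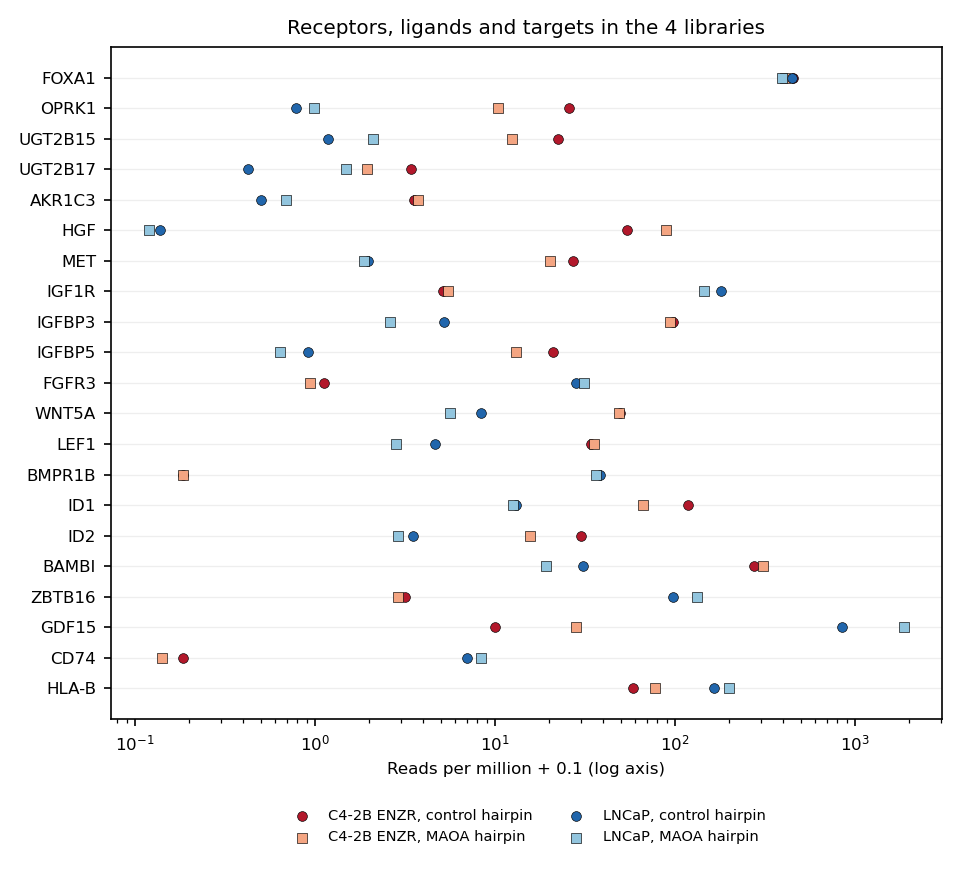
Level of chosen receptors, ligands, enzymes and targets in the 4 libraries, in RPM + 0.1 on a log x axis. Each point is 1 library, and HGF, MET and IGFBP3 lie to the right in C4-2B ENZR while IGF1R, FGFR3 and BMPR1B lie to the left.

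The highest ratios belonged to genes that LNCaP hardly expressed. KCNJ3, a potassium channel subunit activated by G proteins, was at 331 and 308 RPM in C4-2B ENZR and at 0.247 and 0.192 RPM in LNCaP, a fold of 1339.6 (interval 783 to 2517). CBLN2, a secreted synaptic organizer, was read 2398 and 2605 times in C4-2B ENZR against 1 and 3 times in LNCaP. TLL1, a metalloprotease of the BMP1 family, was read 2202 and 2686 times against 1 and 0. FSTL5 (log2 ratio 5.45), LPPR1 (5.94), TENM2 (4.94), a teneurin that links cells, CRABP1 (4.78), which binds retinoic acid, SLFN13 (4.56) and SOHLH2 (4.55), a germ cell transcription factor, were also among the 20 highest. Among genes past 4-fold, the largest differences in level were those of ATP1B1, a subunit of the sodium pump, with 614 against 97.4 RPM, GRB10, an adaptor that inhibits insulin signalling, with 539 against 113, and RAP2B with 477 against 51.9. ATP2B1, a calcium pump of the plasma membrane, had 392 against 47.6 RPM, and LRRN1 292 against 25.2.

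Cancer-testis genes, normally expressed in germ cells and often silenced by methylation elsewhere, were in part higher. Of 13 measured genes 4 were 4-fold higher (1.59% of all genes) and none lower (2.22%), with a median of 0.50. MAGEA10 was at 155 and 147 RPM against 2.32 and 1.54, MAGEA1 at 61.6 and 51.7 against 7.63 and 7.06, and CTAG2 at 81.4 and 84.5 against 6.45 and 4.98. MAGEA3 and MAGEA6 together were at 213 and 186 RPM against 189 and 171, a log2 ratio of 0.17 for the sum of these relatives of MAGEA10. SSX2 and SSX2B share most of their sequence, and their split between libraries is uncertain, but their sum was 124 and 129.8 RPM against 0.285 and 0.308. The same holds for the 4 genes VCX, VCX2, VCX3A and VCX3B, which summed to 385 and 363 RPM against 14.8 and 7.21. PASD1 and SAGE1, further germ cell genes, were read 1138 and 700 times in the C4-2B ENZR control and 2 and 4 times in LNCaP. XAGE1B and XAGE1E, listed with the same values, 50.8 against 1.64 RPM, form with SSX2 and SSX2B a run of 4 measured neighbours that were all 4-fold higher in the control libraries. SSX2 alone was inside 4-fold in the MAOA hairpin libraries (1.26). Of 509 measured X-linked genes 30 (5.89%) were 4-fold higher, and 23 of 498 (4.62%) without genes that share sequence, against 1.44% of genes on the autosomes.

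The lowest ratios belonged to genes of varied function. TENM1, another teneurin, was at 0.639 and 1.22 RPM in C4-2B ENZR and at 231 and 251 RPM in LNCaP. GULP1, an adaptor for the uptake of dying cells, was read 0 and 2 times in C4-2B ENZR and 7252 and 6277 times in LNCaP, in the control at least 1080-fold lower by the limit of 3 reads. GDF15, a stress-induced cytokine, was at 9.88 and 28 RPM against 849 and 1879, and was higher in the MAOA hairpin library of each line. It is listed as a p53 target. Of the 16 p53 targets BBC3 (-2.34) was the only other one 4-fold lower (2.22% of all genes), with -1.53 after GC centring. MDM2 (1.02) and SESN1 (1.11) were higher within 4-fold. Other members of the lowest 20 were ST6GALNAC1 (-6.06), a sialyltransferase, TM4SF1 (-5.89), TFPI (-5.48), an inhibitor of coagulation, PTGFR (-5.40), a prostaglandin receptor, DUSP4 (-5.23), a phosphatase of MAP kinases, PGC (-4.97), the precursor of a gastric protease, and ACADL (-4.88).

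In a list of ion channels and neuronal receptors, which does not hold KCNJ3, 6 of 12 measured genes were 4-fold lower (2.22% of all genes). OPRK1 was the 1 that was 4-fold higher (1.59%), and the median was -1.53. The members were chosen with earlier results of these data known, so this count is no measure of enrichment. KCNN2, a calcium-activated potassium channel, was at 5.88 and 6.71 RPM against 229 and 168. CHRNA2, a nicotinic receptor subunit, was at 0.511 and 0.169 against 25.9 and 25.4, and GRIN3A, a glutamate receptor subunit, at 1.19 and 1.10 against 29.5 and 65.8. CACNA1H, a calcium channel outside that list, had no read in either C4-2B ENZR library and 1628 and 1824 reads in LNCaP. With LMF1, SOX8 and SSTR5 it forms the longest run of neighbours that were all 4-fold lower, 4 measured genes. SSTR5 was inside 4-fold after GC centring (-1.26), so 3 of the 4 were past it there. Among genes past 4-fold, the largest difference in level after KLK3 was that of ABHD2, a lipid hydrolase, with 267 and 364 RPM against 2365 and 2954. RASSF3 (263 against 1367 RPM), ADAMTS1 (57.9 against 724), a secreted metalloprotease, and ELOVL5 (154 against 754), which lengthens fatty acids, followed the same direction.

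**Figure D5:**
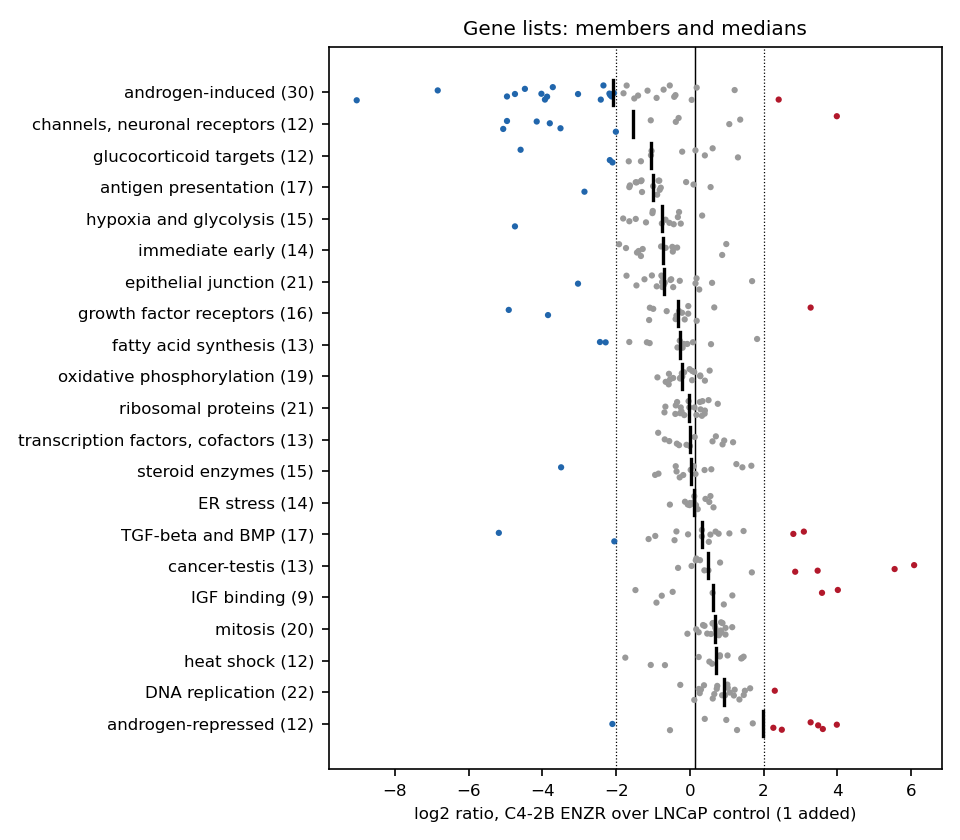
Log2 ratio of C4-2B ENZR over LNCaP control libraries for the measured members of 21 gene lists (x axis), with the number of measured members in brackets. Points are genes, thick bars list medians, the thin line is the median of all genes at 0.13, and the androgen-induced and androgen-repressed lists lie at the 2 ends with -2.09 and 1.99.

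Many processes showed no large difference. None of 21 ribosomal protein genes (median -0.01), 19 genes of oxidative phosphorylation (-0.20), 14 of the endoplasmic reticulum stress response (0.12) or 13 NRF2 targets (0.00) was past even 2-fold, where 9.95% of all genes were 2-fold higher and 9.82% lower. Genes of DNA replication were moderately higher in C4-2B ENZR, with 10 of 22 past 2-fold, a median of 0.92 in the control and 1.36 in the MAOA hairpin libraries. Among them were CDC6 (log2 ratio 1.64) and MCM6 (1.46), which license origins, and CCNE2 (2.30), a cyclin of S phase entry. CCNE2 was the 1 past 4-fold, and it was inside 4-fold in the MAOA hairpin libraries (1.86) and after GC centring (1.72). The median of 20 mitosis genes was 0.68, and 1 of them was past 2-fold. The cytosolic chaperones HSP90AA1 (4451 against 1618 RPM) and HSPA8 (3817 against 1430) were higher and the small chaperone HSPB1 (531 against 1790) was lower, all within 4-fold.

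Of 17 measured genes of antigen presentation 8 were 2-fold lower (9.82% of all genes), 1 of them 4-fold (2.22%), and none was 2-fold higher (9.95%), with a median of -0.99. HLA-B was at 58.8 and 77.8 RPM against 164 and 199, and HLA-C at 132 and 147 against 360.4 and 370.04. CD74, the invariant chain of MHC class II, was read 2 and 1 times in C4-2B ENZR and 361 and 433 times in LNCaP, a control fold of 80.6 (interval 22.2 to 668). Epithelial junction genes had a median of -0.71 over 21, with CLDN3 lower (17.9 against 154 RPM) and CDH1, the gene of E-cadherin, at 510 against 871 RPM. Of 13 measured mesenchymal genes 6 had a ratio above 0 and 7 below. At 2-fold 5 were lower (9.82% of all genes), 2 of them 4-fold (2.22%), and none was 2-fold higher (9.95%). In the MAOA hairpin libraries 1 was 4-fold lower, and with a pseudocount of 5 RPM none was. The median of the mesenchymal genes was -0.34 in the control and -0.09 in the MAOA hairpin libraries. VIM was at 40.5 against 82.8 RPM, while the measured members summed to 729 against 576 RPM in the control libraries. Of 20 neuroendocrine genes 6 were measured and none was 4-fold apart (3.82% of all genes). Among them SYT4, a synaptotagmin, was lower (490 against 1245 RPM) and ENO2, the neuronal enolase, higher (91.7 against 37.3).

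Markers of luminal prostate cells, the cell type the lines stand for, were read in both. Of 15 measured luminal markers 5 were 4-fold lower in C4-2B ENZR (KLK3, KLK2, SLC45A3, TMPRSS2 and SPDEF) and 1 was higher (ACPP), against 2.22% and 1.59% of all genes. All of these genes are also in the androgen-induced list, so this is no separate result. After GC centring 4 luminal markers were 4-fold lower. FOXA1, HOXB13 and KRT18 were at 302 RPM or more in both control libraries. Of 8 measured genes known for changes in LNCaP none was past 2-fold, and 80.2% of all genes lay within 2-fold. The ratio was above 0 for 7 of them, with a median of 0.51 against 0.13 over all genes. ETV1, which is rearranged in LNCaP, was read 0 and 2 times in C4-2B ENZR and 4 and 2 times in LNCaP.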

How the data were processed

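RNA from 4 cultures, 1 library per group, was sequenced as single 50 nt reads, per the labels' protocols. Per the submitters' processing notes the reads were handled with RSEM 1.2.15, Bowtie2 2.1.0 and edgeR on hg19, but no source used here names the annotation or a filter. The authors deposited 1 table per line, of CPM for C4-2B ENZR and of values read as a signal on a similar scale for LNCaP, each normalized separately. Every column held multiples of the value of 1 read (100% of values, tolerance 0.01 read), so reads were recovered. Each library was rescaled to reads per 1000000 (RPM). Genes were joined by row, with the same symbols in the same order for both lines. The 28 symbols turned into dates, and 13 genes past 4-fold that are Y-linked, are not named. No test or p-value was computed. A few genes that the naming rule takes are not reported here.

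Genes were named by rule: the 20 highest and 20 lowest ratios among genes at 10 RPM or more that passed 4-fold the same way in the MAOA hairpin libraries, the 10 largest level differences each way, the extreme and most abundant members of each list, all members of the androgen, steroid enzyme and LNCaP lists, and a few fixed names. ETV1, LMF1, SOX8, SSTR5, VCX2, VCX3A, VCX3B, MAGEA3 and MAGEA6 fall outside this rule and were chosen after their values were seen. The members and the 43 lists (693 genes, 690 found) were chosen with earlier results of these data known. Transcript GC content came from GENCODE v29 for 96.1% of measured genes, and gene order and promoters from RefSeq GRCh38.p14, another build than that of the tables, so the only coordinates given are those of the promoter windows, on GRCh38.p14. The steps were tested on simulated data. Python 3.11.15, pandas 2.3.3, scipy 1.17.1 and R 4.3.3 with edgeR 4.0.16 (trimmed mean of M-values, TMM, factors only) were used. The labels do not say whether the 2 libraries of a line came from separate cultures.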

Additional observations from a re-analysis of the deposited data

How the results depend on the processing

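No paired analysis was possible because each group has 1 library. Against 232 higher and 324 lower genes at 4-fold, a pseudocount of 0.1 RPM gave 466 and 646, and one of 5 RPM gave 74 and 162. A limit of 2-fold gave 1449 and 1431, and one of 8-fold gave 75 and 135. Both counts stayed within 1.5 times the main ones with TMM factors (200 and 383), values as deposited (234 and 305), centring on the median ratio (195 and 391), a minimum of 5 RPM (217 and 308), no filter (232 and 324), the MAOA hairpin libraries (301 and 349) and without genes sharing sequence (218 and 318). Centring within GC bins, chosen after seeing the data, gave 226 and 280. Of 108 named genes past 4-fold, 99 were still past it after GC centring and 91 with a pseudocount of 5. In the MAOA hairpin libraries 96 were, but the 20 highest and 20 lowest were named only if past 4-fold there. That count was thus partly fixed by the naming rule. Over all genes past 4-fold, 212 of 232 higher and 271 of 324 lower ones also passed there. None of the 108 changed direction in the 7 alternatives computed for single genes. The median ratio of all genes was -0.02 with TMM factors. No replicate could be left out.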
